A study of Mus musculus with 26 samples.

Results

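Small nucleolar RNAs (snoRNAs) are short noncoding RNAs of the nucleolus that direct chemical changes in other RNAs. Box C/D snoRNAs, named Snord in mouse, guide 2′-O-methylation through fibrillarin, and box H/ACA snoRNAs, named Snora, guide pseudouridylation through dyskerin. In vertebrates most lie in introns of host genes, many of which encode ribosomal proteins or translation factors, and they are released when the spliced intron is debranched and trimmed. The mature RNA carries no poly(A) tail, so libraries made from poly(A)-selected RNA are not designed to capture it.

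Of 1507 entries with the snoRNA biotype in the deposited gene table, 165 (10.9%) had an FPKM (fragments per kilobase of gene, scaled to library size, the deposited unit) of at least 1 in at least 5 of the 26 libraries, and these 165 entries are described here. The entries were chosen by their FPKM values in these same libraries, so their presence above that level is not a result. By name they comprised 34 Snord, 21 Snora and 110 other entries, the last being 87 predicted genes named Gm, 22 entries with no symbol and AF357399. A further 1102 entries had no read in any library.

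Spleens of female BALB/c mice, 8 weeks old and 20 to a group per the labels, gave the libraries. Ovalbumin (OVA), the main protein of egg white and a common experimental allergen, together with a miR-676-3p mimic was the treatment behind 10 libraries, 5 with the code MM and 5 with the code MN. OVA alone was behind 11 libraries, 6 with the code OS and 5 with the code ON, and normal saline behind 5 with the code CT. OVA (0.05 mg per day) or saline was injected intraperitoneally on days 1, 3 and 5. The mimic was injected once, on day 3, through a tail vein at a dose of 7 mg per kg. None of the 5 codes is defined in the labels, which also leave unsaid whether a library stands for a mouse of its own. The p-values below therefore measure the spread between these libraries, which may be technical. All libraries were made with poly-T beads and random hexamers, and fragments of 370 to 420 bp were preferred, per the labels' protocols.

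The entries were far shorter than those fragments, 52 to 246 bases with a median of 127. Together they held 28543 recovered reads, 0.00689% of all reads, which came to between 40.8 in ON 3 and 105.9 in OS 4 per 1000000 recovered reads of the library (RPM). The median entry had 3 reads per library. On an entry of the median length 1 read was worth an FPKM of 0.410 to 0.708 depending on the library, so 2 or 3 reads sufficed to reach the threshold, and on the shortest entry a single read did. Only 50 of the 165 reached 10 reads in 5 libraries, and no entry below the FPKM threshold did. On the longest of the 165, 3 to 5 reads already gave an FPKM of 1, so at such lengths that absence follows from the threshold. Just inside the threshold, with 5 libraries at FPKM 1, 10 entries included Gm22865, Gm24403 and Gm24313, at median FPKM of 0.561, 0.447 and 0.445. Just outside it, with 4 such libraries, 14 entries included Gm23527 at a median FPKM of 0.410 and Gm24339 and Gm24992 at a median of 0. Each SD or SE given below measures the spread between libraries, and the upper bound given for an entry at 0 reads covers counting error only. Because no strand-specific counting is stated, reads of an entry and of a transcript on the opposite strand cannot be told apart.

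The spleen was recognisable in every library: Cd79a of B cells ranged from 107.6 to 478.5 FPKM and Spic of red pulp macrophages from 26.1 to 60.3. Genes of the pancreas, an organ beside the spleen, held 28.8% of reads in ON 2, 14.4% in MM 2, 4.35% in ON 3 and at most 0.0035% elsewhere. Saline library CT 4 stood apart, since mitochondrial genes took 6.62% of its reads and no more than 1.81% of those of any other saline library, and its values are given separately below. In whole tissue, fewer cells of a type and less RNA per cell cannot be told apart.

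The sequences of 10 entries are printed because the results turn on them: the pair of highest level in each named class, those that passed a test and have a reference sequence, and those whose level went with that of their host gene. ENSMUSG00000119649, which also passed a test, is named only. They come from the GENCODE transcript set on GRCm38, on which 133 of the 165 entry IDs were found, all with the deposited length. Capitals mark the box motifs found on the entry's own strand: a C box (TGATGA within the first 20 bases), a D box (CTGA within the last 15 bases), or the ACA that lies 3 bases from the 3′ end of a box H/ACA RNA. C and D boxes are marked only where both were found, so an entry in lower case throughout lacks that pair and the ACA. Snord72 has a D box alone, CTGA within its last 15 bases, which is left unmarked.
Snord104 (chr11:106500993-106501062, plus strand): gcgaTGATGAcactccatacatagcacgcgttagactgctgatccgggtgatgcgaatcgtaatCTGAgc
Snord72 (chr15:5118404-5118484, plus strand): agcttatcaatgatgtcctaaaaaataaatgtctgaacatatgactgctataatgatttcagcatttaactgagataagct
Snord49a (chr11:62603450-62603521, plus strand): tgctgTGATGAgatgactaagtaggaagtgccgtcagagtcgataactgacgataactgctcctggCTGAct
Snord65 (chr11:62604515-62604586, plus strand): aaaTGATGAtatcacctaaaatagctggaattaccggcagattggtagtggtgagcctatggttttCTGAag
Snord7 (chr11:83294304-83294400, plus strand): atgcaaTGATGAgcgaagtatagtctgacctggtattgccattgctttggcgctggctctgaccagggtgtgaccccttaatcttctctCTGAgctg
Snora57 (chr19:8888538-8888685, minus strand): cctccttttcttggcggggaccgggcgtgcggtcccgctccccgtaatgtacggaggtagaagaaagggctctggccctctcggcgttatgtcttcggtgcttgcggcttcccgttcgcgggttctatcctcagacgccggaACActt
Snora31 (chr14:75847905-75848034, plus strand): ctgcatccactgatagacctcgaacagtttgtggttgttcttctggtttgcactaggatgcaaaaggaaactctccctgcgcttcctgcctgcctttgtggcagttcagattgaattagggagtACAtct
Snora69 (chrX:37082912-37083042, minus strand): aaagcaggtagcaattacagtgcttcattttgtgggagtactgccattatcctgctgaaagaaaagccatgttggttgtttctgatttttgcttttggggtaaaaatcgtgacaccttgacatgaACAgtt
Gm25776 (chr12:91573430-91573572, minus strand): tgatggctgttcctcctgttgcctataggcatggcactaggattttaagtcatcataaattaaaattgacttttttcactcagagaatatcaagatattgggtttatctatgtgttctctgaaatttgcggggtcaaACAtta
Gm24119 (chr10:91118291-91118536, minus strand): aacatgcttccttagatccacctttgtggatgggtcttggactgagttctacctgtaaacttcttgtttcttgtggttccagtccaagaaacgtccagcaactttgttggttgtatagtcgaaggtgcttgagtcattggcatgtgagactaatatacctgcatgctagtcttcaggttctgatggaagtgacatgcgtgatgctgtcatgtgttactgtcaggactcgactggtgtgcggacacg

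The motifs followed the names. Both C and D boxes stood in 70% of the 30 Snord entries with a sequence and in none of the 15 Snora entries, and the ACA stood in 86.7% of the Snora entries. Of the 88 other entries with a sequence, 11.4% had both C and D boxes and 40.9% the ACA. Over all 133 entries 23.3% had both C and D boxes, 36.8% the ACA and 39.8% neither that pair nor the ACA. Of the 1065 snoRNA entries with a sequence, members or not, the shares were 9.11%, 19.8% and 70.7%. An entry with a C box alone or a D box alone counts under neither. Gm24119 and Snord72 are among those with neither the pair nor the ACA, although Snord72 has a D box alone. These are letter matches in fixed windows, not evidence of a mature snoRNA. Among the 133 sequences 15 pairs were at least 80% identical and 4 pairs at least 90%, which touches 24 and 8 entries. Reads between such copies may have been split or dropped by the counting, so values of Gm22270 and Gm26387 (94.7% identical, both in Rpl5) and of Snora17 and Gm24403 (84.85%) are uncertain.

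Among the Snord entries, Snord104, which guides methylation of large-subunit ribosomal RNA in human, had the highest median FPKM over the 26 libraries, 43.9, and the most reads, 1378. In the libraries with mimic its FPKM was 42.4, 27.2, 84.7, 19.2 and 22.3 in MM 1 to 5 and 63.8, 71.8, 53.7, 90.2 and 67.4 in MN 1 to 5. Under OVA alone the 6 OS libraries ranged from 9.24 through a median of 41.0 to 90.6, and ON 1 to 5 held 21.8, 12.8, 13.8, 14.9 and 23.5. The saline libraries held 132.6, 45.4, 62.6, 6.40 and 66.5 in CT 1 to 5. The MN libraries were tightly grouped and high and the ON libraries low, while MM and OS each spread over both ranges. The lowest saline library, at 6.40, lay below every ON library. The other saline libraries, at 45.4 to 132.6, lay above every ON library.

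Snora57, the highest Snora entry with a median FPKM of 19.6, followed a similar order. Its FPKM was 20.8, 17.2, 33.5, 9.86 and 15.4 in MM 1 to 5 and 28.6, 31.7, 19.9, 35.3 and 24.4 in MN 1 to 5. Across the OS libraries it ran from 3.58 through a median of 14.7 to 35.7, and ON 1 to 5 held 8.27, 18.8, 8.999, 11.3 and 9.05. In saline it was 53.4, 25.6, 22.7, 0 and 19.5 in CT 1 to 5. CT 1 held the highest and CT 4 the lowest value of all libraries for both entries, and no test separated the groups for either (limma adjusted p 0.408 or more for Snord104 and 0.539 or more for Snora57 in all 5 comparisons). Across libraries the log2 values of Snord104 and Snora57 had r = 0.87 (rho = 0.90, n = 26, 0.88 without CT 4), although they lie on chromosomes 11 and 19 and belong to different box classes.

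The other leading entries were lower. Among Snord entries the medians were 22.3 for Snord72 in the ribosomal protein gene Rpl37, 14.5 for Snord73b in Rps3a1, 12.5 for Snord55, 9.77 for Snord49a in the noncoding gene 2410006H16Rik and 9.20 for Snord7 in the noncoding gene AA465934. Among Snora entries they were 17.5 for Snora31 in Tpt1 (a translationally controlled protein), 9.99 for SNORA21B in Rpl23, 7.91 for Snora17 with no host in the table, 4.72 for Snora41 in the elongation factor gene Eef1b2 and 3.78 for SNORA80E in Khdc4. The leading entries of neither name were ENSMUSG00002076975 at 21.3 (opposite to Enox1), Gm23201 at 18.2 in Zfas1 and Gm24494 at 14.96 in Rabggtb (a Rab prenyltransferase subunit). The 10 entries with the most reads held 31.3% of the reads of all 165, and 58 entries had a median FPKM under 1.

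**Figure D1:**
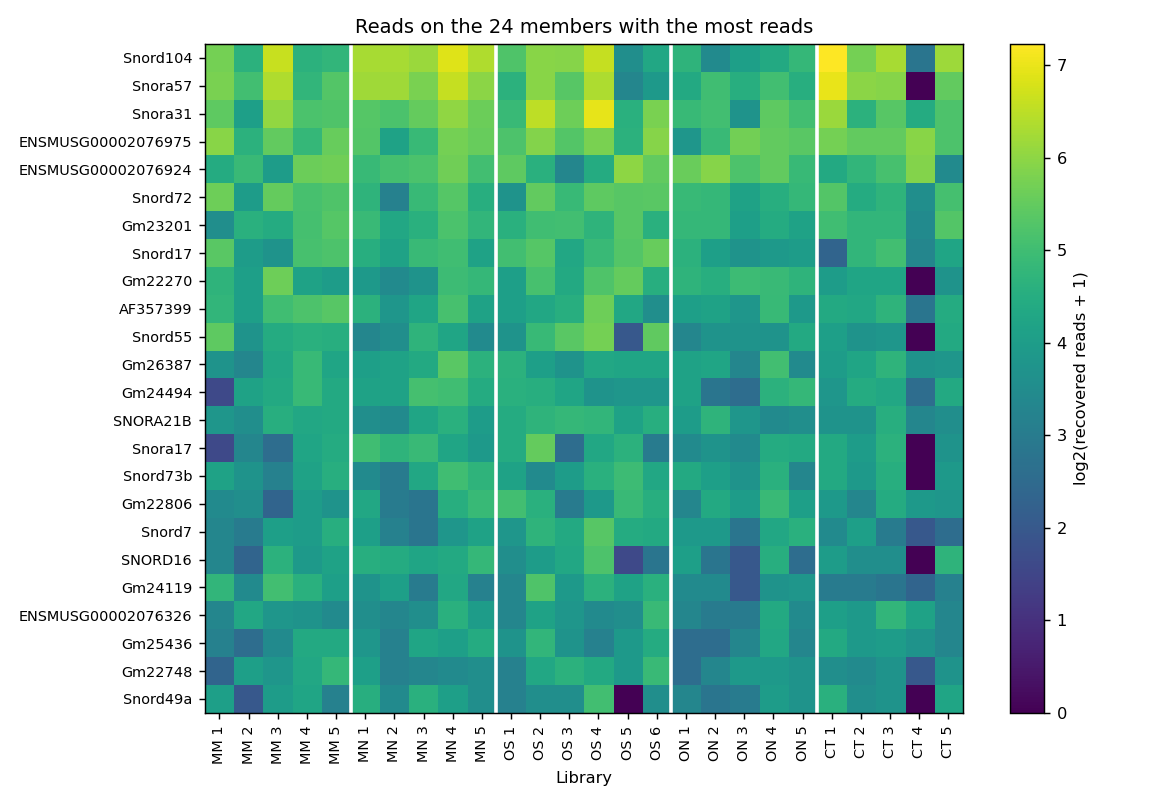
Reads on the 24 snoRNA entries with the most reads, one row per entry and one column per library, coloured by log2(recovered reads + 1), with white lines between the codes MM, MN, OS, ON and CT. Snord104 and Snora57 are bright in MN and dim in ON, and column CT 4 holds 0 reads for Snora57, Gm22270, Snord55, Snora17, Snord73b, SNORD16 and Snord49a.

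Summed by class, Snord RPM averaged 18.3 ± 4.07 in MM, 20.1 ± 3.14 in MN, 21.2 ± 7.02 in OS, 12.96 ± 2.71 in ON and 17.1 ± 6.88 in saline (SD, n = 5, 5, 6, 5 and 5). For Snora the means were 13.4 ± 3.50, 14.7 ± 2.02, 15.6 ± 5.01, 9.29 ± 1.82 and 12.2 ± 5.78 in the same order and n, and for the other entries 38.0 ± 9.49, 38.7 ± 8.04, 43.1 ± 4.82, 33.6 ± 4.82 and 34.8 ± 2.24. ON had the lowest mean in each class. For the other entries its median, 36.1 RPM, lay above that of saline (34.7) and MM (33.4), with ON 3 lowest at 25.3. All OS libraries lay above all ON libraries in the sum over the 165 entries, at 68.3 to 105.9 against 40.8 to 61.7 RPM, and in the Snora sum, at 11.6 to 23.5 against 6.41 to 11.1. The Snord sums met, with OS 1 at 15.96 and ON 5 at 15.97. Without ON 2 and ON 3, which hold pancreatic RNA, the ON sums over all entries were 58.9 to 61.7 RPM and still lay below OS. In summed FPKM the 2 codes overlapped through ON 2. Its sum over all entries was 714.1 FPKM, above OS 1 at 589.7 and OS 5 at 591.2. Its Snora sum of 117.6 FPKM lay above the 82.3 of OS 5. No p is given for these sums because the entries were chosen with results known. Ribosomal RNA entries also ran higher in some OS libraries, at 945 to 4722 RPM in OS against 1452 to 2557 in ON, and their part in the difference was not tested.

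**Figure D2:**
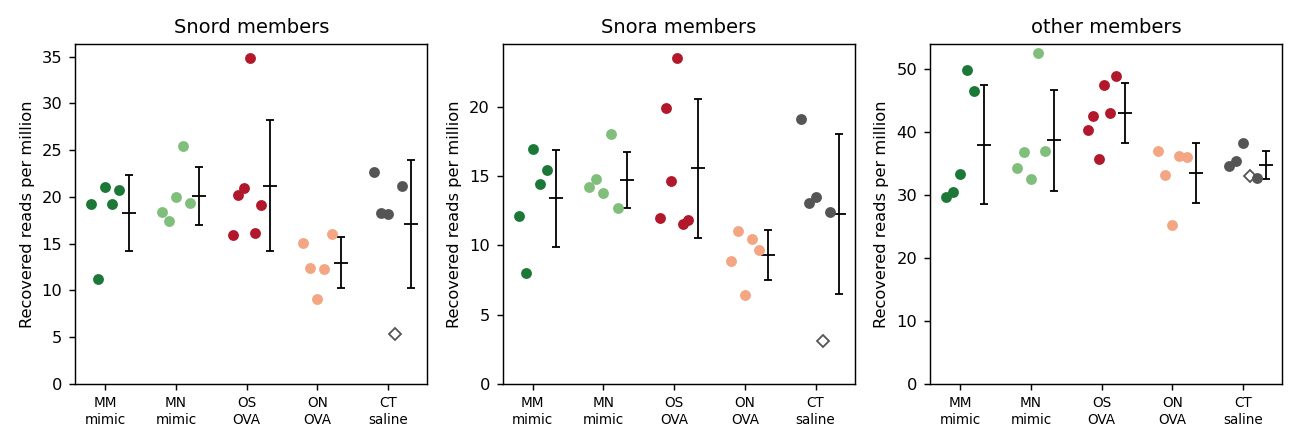
RPM, reads per 1000000 recovered reads, on the 34 Snord, 21 Snora and 110 other entries in each library, by code, with the mean and SD of each code as a black bar and the saline library CT 4 as an open diamond. ON lies low for Snord and Snora, while for the other entries the ON libraries except ON 3 lie among the saline libraries. CT 4 is the lowest library for Snord (5.27) and Snora (3.11) but sits among the saline libraries for the other entries (32.997).

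Across the 26 libraries the Snord and Snora sums moved together (r = 0.91, rho = 0.86), and the Snord sum had r = 0.54 with the other entries (rho = 0.30). The Snord sum had r = 0.58 with ribosomal RNA reads (rho = 0.48) and r = -0.01 with small nuclear RNA reads (rho = -0.09). The sum of the other entries had r = 0.07 with ribosomal RNA reads (rho = 0.00) and r = 0.67 with small nuclear RNA reads (rho = 0.62). These sums share their library and its depth, and are given as descriptions. The genes whose log2 level went most closely with Snord104, among 15672 genes tested, were the respiratory complex I subunit gene Ndufa3 (r = 0.94), the myosin light chain gene Myl6 (r = 0.93) and 2410006H16Rik (r = 0.93), with r between 0.91 and 0.93 when CT 4 was left out.

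CT 4 had the lowest Snord and Snora sums of all libraries. The sum of its other entries, at 32.997 RPM, lay within the 32.7 to 38.3 of the other saline libraries, but 62 of those 110 entries were at 0 in CT 4, against 13 to 28 in the other saline libraries. The 3 entries with the most reads in CT 4, ENSMUSG00000119163, ENSMUSG00002076975 and ENSMUSG00002076924 at 68, 60 and 58 reads, are all among the other entries. They held 26.9% of the CT 4 reads on all 165, within the 8.81% to 28.1% that the top 3 entries held in the other libraries. CT 4 had at least 1 read on 71 of the 165 entries, against 131 to 149 in the other saline libraries and 116 to 150 over all other libraries. Of the 50 entries with 10 reads in 5 libraries, 21 were at 0 in CT 4, whereas no other library had more than 3 of them at 0, and 13 of those 21 had a read in each of the 25 other libraries. Snora57, with 9 to 127 reads elsewhere, was at 0, which allows an FPKM of up to 1.51 in that library. Snord73b and Gm22270, with at least 7 and 10 reads elsewhere, were also at 0. The hosts of these last entries were not low: Rps3a1 stood at 2322 FPKM in CT 4 against 987 to 1782 in the other saline libraries, and Rpl5 at 512 against 243 to 318. Snord49a was at 0 as well, and its host 2410006H16Rik was low, at 14.4 FPKM in CT 4 against 116 to 171.

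The pattern in CT 4 differed by entry. Gm26387, the near copy of Gm22270 in the same host, had an FPKM of 6.79 there against 6.46 to 10.8 in the other saline libraries. Of 23 entries in ribosomal protein hosts on the same strand 17 were at 0 in CT 4, against 1 to 4 in the other saline libraries, and of 31 entries with C and D boxes 20 were, against 2 to 6. Zeros were frequent in CT 4 in every class, with 94 of all 165 entries at 0. They took in 56 of 106 in other same-strand hosts and 15 of 28 with a host only on the opposite strand. By motif, 27 of 49 with the ACA and 29 of 53 with neither the C and D pair nor the ACA were at 0. Whether the classes differ in this was not tested. ENSMUSG00000119163, in the zinc finger gene Zfp808 and named after its values were seen, had 68 reads in CT 4 and 45 in CT 1 but at most 21 in any other library. ENSMUSG00002076924, on the strand opposite to Snrnp70, had 28.1 FPKM in CT 4 against 4.26 to 12.6 in the other saline libraries. CT 4 was also lowest of all libraries in ribosomal RNA reads (602 RPM) and in histone gene reads (0.0104%), and highest among saline libraries in small nuclear RNA reads (38.7 RPM). What these differences of CT 4 have to do with its snoRNA values was not tested.

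A host gene was taken as one whose span in the table holds at least 90% of the entry. Of the 165 entries 157 had one, 129 on the same strand and 28 only on the opposite strand, and 8 had none, among them Snord104, Snora17 and Snora43. The table's build is not named, so positions within hosts were read on GRCm38 by gene ID: of the 129 on the same strand, 100 lay in introns, 6 partly in an exon and 1, Gm23201, within an exon of Zfas1, while 22 had no match. The same-strand hosts were 100 different genes, and 23 entries lay in ribosomal protein genes. Per length, the host stood above the entry in 121 of 129 pairs by median FPKM. The exceptions included Snord7, at 9.20 against 2.90 for AA465934, and Gm23201, at 18.2 against 18.0 for Zfas1.

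The measured levels of entries did not generally rise and fall with those of their hosts across libraries. Over 128 same-strand pairs the median r between log2 levels was 0.08, with quartiles of -0.12 and 0.30 and a range of -0.50 to 0.74, and 9 pairs lay above 0.5. For the 41 pairs whose entry reached 10 reads in 5 libraries the median was 0.05. The 28 opposite-strand pairs had a median of 0.04. Each r is over 26 libraries that include all treatments, and entry and host share the library and its scaling. At a median of 3 reads per entry and library, counting error pulls r towards 0. Low values of r therefore cannot show that an entry and its host vary separately.

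The closest pairs were chosen after their values were seen. Snord49a had r = 0.74 with 2410006H16Rik (rho = 0.65), which fell to 0.63 without CT 4 and to 0.51 without the 2 libraries farthest from the median. Snord65, in the same host, had r = 0.57 (0.42 without CT 4, 0.26 without the 2 farthest), and the third entry in this host, Snord49b, had r = 0.08. Gm24119, the longest entry at 246 bases, had r = 0.71 with its host Slc25a3, the mitochondrial phosphate carrier (0.68 without CT 4, 0.63 without the 2 farthest). Snora69, which guides pseudouridylation of ribosomal RNA in human, had r = 0.59 with Rpl39 on chromosome X. The lowest same-strand value, r = -0.50 for Snord73b and Rps3a1, rested on CT 4. It was -0.23 without CT 4 and -0.25 without CT 4 and MN 2. ENSMUSG00002076924 had r = -0.64 with Snrnp70, which encodes a U1 small nuclear ribonucleoprotein, from the strand opposite (-0.58 without CT 4), and r = -0.71 with Snord104.

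**Figure D3:**
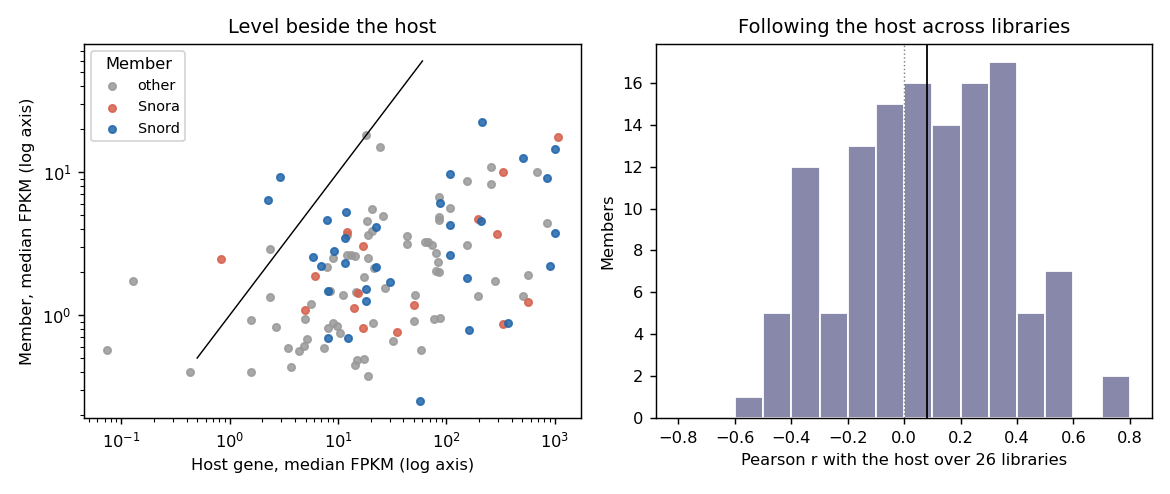
Left, median FPKM over 26 libraries of each same-strand entry against that of its host gene, both on log axes, coloured by class, with a line of equality and entries at a median of 0 left out. Right, the number of entries by the Pearson r of their log2 level with that of the host, with a black line at the median of 0.08; most hosts lie above their entry, and the r values spread to both sides of 0.

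Differences between groups were tested with limma on log2(FPKM + 1) over all 15672 genes at FPKM 1 in 5 libraries, with a mean for each code and Benjamini-Hochberg adjustment at 0.05. All 165 entries passed that filter by their definition, 140 of them through libraries of all 5 codes and none through 1 code only. On this scale the standard error of an entry was wide: its median was 0.38 for OVA against saline, against 0.14 over all genes. The comparisons of OVA and of mimic with saline share the saline libraries.

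In OVA against saline, 2 of the 165 entries were called and both rose, 1.21% of the entries against 2.17% of all genes tested (0.785% for rises). Snord7, which in human guides methylation of U6 small nuclear RNA, ran from 3.74 through a median of 12.97 to 27.3 FPKM over the 11 OVA libraries, against 6.42, 10.1, 4.11, 2.31 and 3.38 in CT 1 to 5. It averaged 12.9 ± 5.90 FPKM under OVA and 5.26 ± 3.09 in saline (SD, n = 11 and 5), a log2 difference of 1.13 ± 0.30 (SE, limma adjusted p = 0.0467), and 8 of 11 OVA libraries lay above all saline libraries. The ON libraries and saline overlapped and most of the OS libraries did not. Its host AA465934 differed by -0.24 ± 0.17 (limma adjusted p = 0.509). Without CT 4 the difference of Snord7 was 0.94 and no longer passed (limma adjusted p = 0.107). The call was also lost without any 1 of OS 2, OS 4, OS 6, ON 1, ON 2, ON 4, ON 5, CT 1, CT 3 or CT 5 (limma adjusted p up to 0.114).

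ENSMUSG00000119649 was the second. It ran from 5.02 through a median of 7.93 to 16.9 FPKM under OVA, against 1.50, 3.69, 6.86, 2.70 and 1.58 in CT 1 to 5. The difference was 1.26 ± 0.34 (limma adjusted p = 0.0475), with 7 of 11 OVA libraries above all saline libraries, and ON 3 and ON 5, at 16.05 and 16.9, were the highest. Without CT 4 it was 1.25 and did not pass (limma adjusted p = 0.0748), nor did it without any 1 of OS 1, OS 2, OS 4, OS 5, OS 6, ON 2, ON 3, ON 5, CT 1, CT 2 or CT 5 (up to 0.134).

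**Figure D4:**
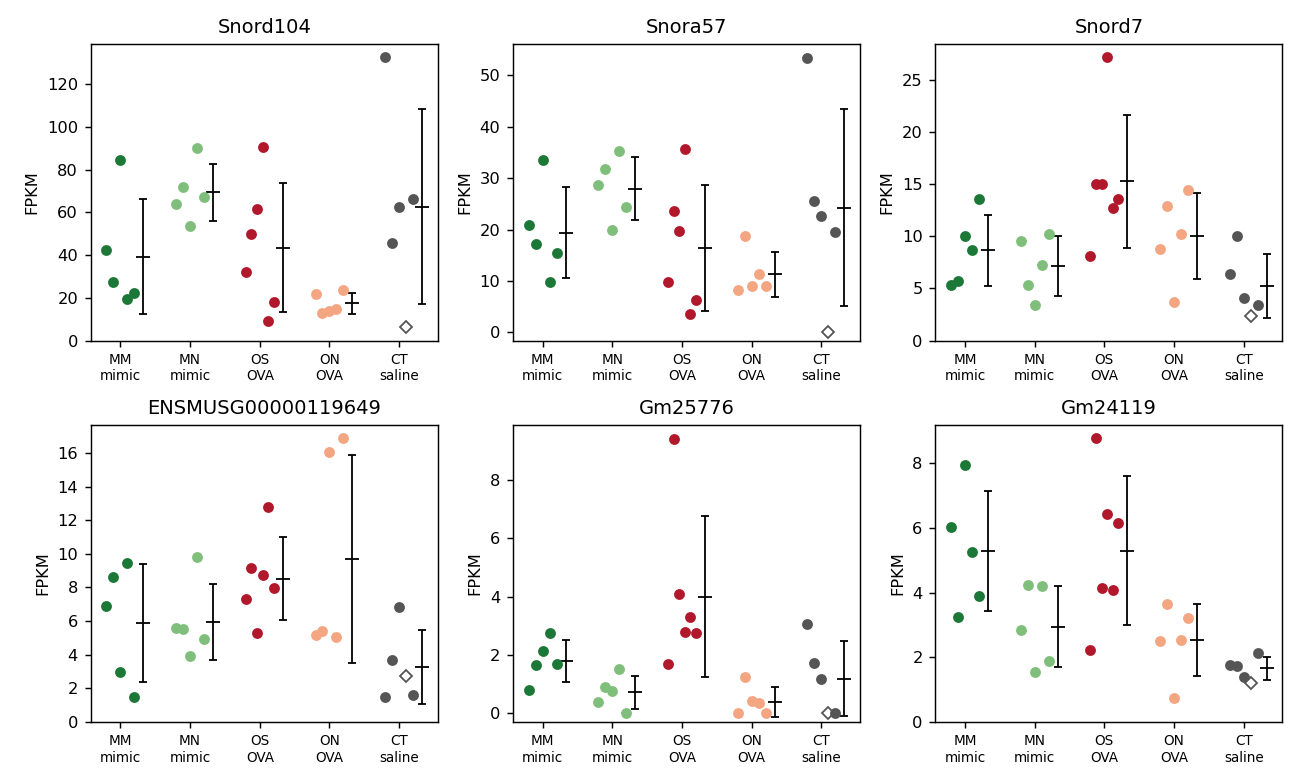
FPKM of 6 entries in each library by code, with the mean and SD of each code as a black bar and CT 4 as an open diamond. The OS libraries of Gm25776 lie above its ON libraries, most OVA libraries of Snord7 and ENSMUSG00000119649 lie above saline, and CT 4 is the lowest library for Snord104, Snora57 and Snord7.

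Gm22270 in Rpl5 just missed the threshold at 1.36 ± 0.38 (limma adjusted p = 0.0593), with 13.3 ± 3.67 FPKM under OVA and 5.83 ± 3.38 in saline including the 0 of CT 4. Its near copy Gm26387 differed by 0.04. Of 124 entries whose same-strand host was tested, 3 had a host that was called, beside 2.17% of all genes, and these hosts, 2 genes, fell, as did 217 of the 340 genes called. Rpl37 fell by 0.94 while its entry Snord72 had 0.21 ± 0.31 (limma adjusted p = 0.802). Rpl23 fell by 0.93 while its entries SNORA21B and Snora21 had 0.46 and -0.34, neither called. The difference between an entry and its host was not tested. At an unadjusted p under 0.05 there were 16 entries, 9.70% against 16.3% of all genes.

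The median log2 difference of the 165 entries in OVA against saline was 0.07, beside 0.01 over all genes. Above 0 were 98 of 165 entries, beside 8101 of 15672 genes. For the 50 better covered entries the median was 0.30. Without CT 4 these medians were -0.05 and 0.07, beside 0.00 over all genes, so their direction or size rested on that library. Leaving out 1 of the other OVA or saline libraries gave medians of 0.04 (OS 4) to 0.13 (CT 3) over the 165 entries.

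In OVA with mimic against saline no entry and none of the 15672 genes was called by limma, 0% of either, nor by limma voom on recovered reads. At an unadjusted p under 0.05 there were 14 entries, 8.48% against 6.72% of all genes. Of the 1053 genes at that p 483 were higher with mimic (3.08% of all genes), and of the 14 entries 12 were. Without CT 4 there were 5 such entries, 3 of them higher, and 462 genes in place of 1053. The smallest p belonged to Gm24119, at 4.11 ± 1.94 FPKM with mimic and 1.65 ± 0.36 in saline (SD, n = 10 and 5, log2 difference 0.86 ± 0.24, limma adjusted p = 0.646), followed by Gm22581 in Polr3c at 1.07 ± 0.39 and Gm22200 in Hspa9 at 1.14 ± 0.43. Of the 10 mimic libraries 8 lay above all saline libraries for Gm24119. The median over the entries was 0.16, beside 0.01 over all genes, and was 0.02 without CT 4 and 0.26 without CT 3. The same 3 entries had 0.76, 0.81 and 1.21 in OVA against saline, none called.

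In OVA with mimic against OVA no entry and no gene was called by limma or by limma voom, 0% of either. At an unadjusted p under 0.05 there were 14 entries (8.48%) and 1590 genes (10.1%). The entries' median difference was 0.04, beside 0.00 over all genes, and ranged from -0.01 (without MM 4) to 0.07 when 1 library was left out. Those of smallest p had few reads: Gm24403, opposite to the histone methyltransferase gene Ash1l, had 23 reads in 10 mimic libraries and 3 in 11 OVA libraries (0.79 ± 0.18, limma adjusted p = 0.139). Gm26236 in Eng, the gene of endoglin, had 11 and 29 reads in the mimic and OVA libraries (-0.63 ± 0.23), and ENSMUSG00002075696 had 18 and 1 (0.64 ± 0.26). Gm24403 and ENSMUSG00002075696 reached FPKM 1 in mimic and saline libraries only. The filter thus admitted both through the side where they were high, so their small p is no support for a difference. Snord104 averaged 54.3 ± 25.6 FPKM with mimic and 31.6 ± 25.5 under OVA alone (SD, n = 10 and 11), a difference of 0.97 ± 0.40 that did not pass (limma adjusted p = 0.430).

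Between the OVA codes, OS against ON, 1 of 165 entries was called, 0.606% against 0.185% of all genes (0.172% for rises). Gm25776, in an intron of Gtf2a1, the gene of a general transcription factor subunit, ran from 1.69 through a median of 3.03 to 9.39 FPKM in OS, against 0, 1.26, 0.423, 0.364 and 0 in ON 1 to 5. All 6 OS libraries lay above all ON libraries, with 55 reads in OS and 4 in ON. The log2 difference was 1.75 ± 0.35 (limma adjusted p = 0.0393), while Gtf2a1 had 0.23 ± 0.13. The mimic and saline libraries, at 0 to 2.75 and 0 to 3.05, spanned the gap between OS and ON. The call was lost without any 1 of the OS libraries 2, 3 and 4 or of the ON libraries 1, 3, 4 and 5 (limma adjusted p up to 0.184), and with voom (0.0568).

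Gm25965, on the strand opposite to Pkn2 and chosen after its values were seen, was the other of 2 entries without overlap between OS and ON (1.21% against 0.759% of all genes), with 35 reads in OS and 4 in ON (1.71 ± 0.43, limma adjusted p = 0.0927). At an unadjusted p under 0.05, there were 17 entries, 10.3% against 10.6% of all genes. Of the 1658 genes at that p 899 were higher in OS (5.74% of all genes), and of the 17 entries 16 were. Snora69, at 7.56 ± 4.12 FPKM in OS and 2.08 ± 1.50 in ON, was among these (1.37 ± 0.38, limma adjusted p = 0.129). The entries' median was 0.22, beside 0.01 over all genes, and by class it was 0.37 for Snord, 0.30 for Snora and 0.17 for the others. Above 0 were 111 of 165 entries, beside 8180 of 15672 genes. The median of the same-strand hosts tested was 0.11. Without ON 3 the entries' median was 0.12, the lowest of the fits that left out 1 library, with 100 of 165 entries and 8188 of 15672 genes above 0. Without ON 2, ON 3 and MM 2 the entries' median was 0.17.

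Between the mimic codes, MM against MN, no entry was called by limma or by limma voom, against 0.172% of all genes by limma. At an unadjusted p under 0.05 there were 8 entries (13 without MN 4), 4.85% against 7.25% of all genes. Gm24403 had 6 reads in MM and 17 in MN (-0.69 ± 0.26, limma adjusted p = 0.479). It reached FPKM 1 in MN but not in MM, so here too the filter admitted it through the side where it was high. Gm26440, opposite to the Hippo pathway kinase gene Lats2, had 24 and 7 in MM and MN (0.99 ± 0.37), and Gm24252, opposite to Dock8, had 14 and 42 (-1.20 ± 0.47). Gm23346 was the single entry without overlap, lower in MM, 0.606% against 3.93% of all genes in either direction and 1.91% in this one. The entries' median was -0.07, beside 0.00 over all genes, and turned to between 0.01 and 0.02 without any 1 of MM 1, MM 2, MM 3 or MN 4.

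**Figure D5:**
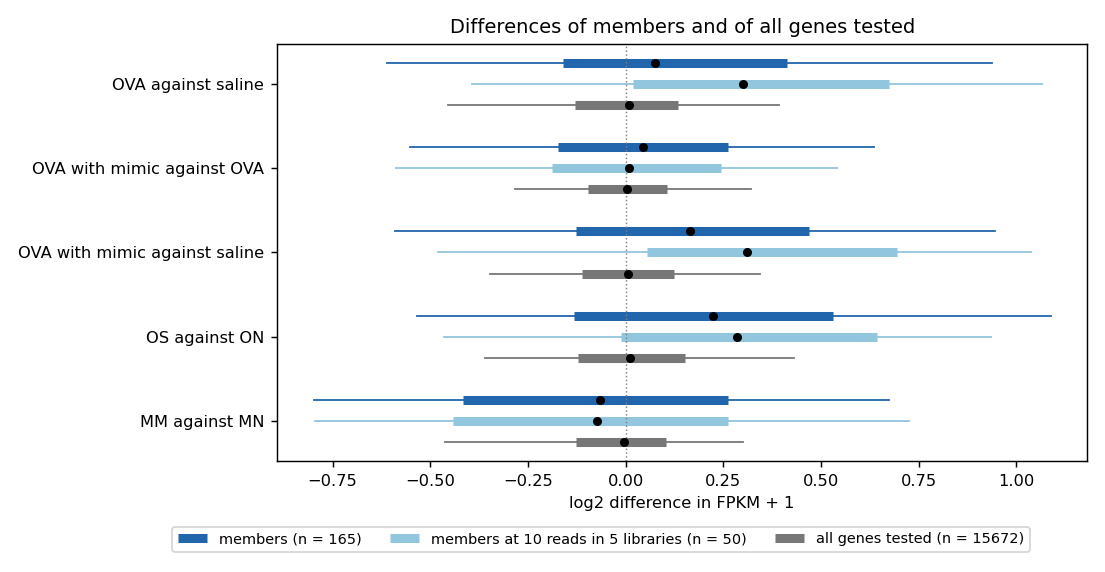
Log2 differences of FPKM + 1 in the 5 comparisons for the 165 entries, for the 50 of them with 10 reads in 5 libraries and for all 15672 genes tested; points are medians, thick bars the middle 50% and thin bars the middle 90%. The entries spread more widely than all genes, and their median lies to the right of 0 in OS against ON (0.22, or 0.12 without ON 3).

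The proteins that make and carry snoRNAs were listed with earlier results of these data known. All 5 genes of the box C/D particle were tested and none was called in any of the 5 comparisons, with the methyltransferase gene Fbl at 21.7 FPKM under OVA and 28.3 in saline (-0.39 ± 0.13, limma adjusted p = 0.104), and Nop56 and Snu13 at -0.06 and -0.13. Of 6 genes of the box H/ACA particle, Nhp2, a core subunit, fell to 32.9 ± 9.16 FPKM under OVA, against 54.1 ± 5.20 in saline (SD, n = 11 and 5, -0.75 ± 0.18, limma adjusted p = 0.0261), with 10 of 11 OVA libraries below all saline libraries. Gar1, another core subunit, had -0.84 ± 0.24 (limma adjusted p = 0.0677) and the pseudouridine synthase gene Dkc1 -0.37 ± 0.13, while the Snora entries had a median of -0.02 in the same comparison with none called.

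Of 13 tested genes of snoRNP assembly and trafficking none passed in any comparison, the nearest being the ATPase gene Ruvbl1 under OVA at -0.37 ± 0.10 (limma adjusted p = 0.0529), and of 10 genes of intron debranching and RNA trimming none did. Among 18 tested noncoding host genes Gm12918 alone was called, falling to 9.39 ± 3.03 FPKM under OVA, against 19.7 ± 6.22 in saline (-1.01 ± 0.21, limma adjusted p = 0.0126). In OS against ON all 18 of these host genes had a positive difference, with a median of 0.50 and none called. Over all genes tested 8180 of 15672 had a positive difference. Nop58, a core protein of the box C/D particle, is itself the host of the entries Snord70, Snord11 and Gm26287, which had -0.26, -0.32 and 0.00 in OVA against saline beside -0.24 ± 0.10 for Nop58, none called.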

How the data were processed

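RNA was sequenced from 26 poly(A)-selected spleen libraries. The authors deposited FPKM per gene with a gene length. The submitters' processing notes list, without saying what each was used for, edgeR 3.24.3, DESeq2 1.20.0, featureCounts 1.5.0-p3, HISAT2 2.0.5, StringTie 1.3.3b and CASAVA. A genome build and strand setting are not given in those sources. FPKM times gene length came out as whole multiples of 1 step in each library for 100% of values (tolerance 0.05), and dividing by that step recovered 14224832 to 18113989 reads per library. The entries and lists were chosen with earlier results of these data known. Tests used limma 3.58.1 in R 4.3.3 on log2(FPKM + 1) with a variance trend and 1 mean for each of 5 codes over all libraries, tested on simulated data first. OVA is the average of OS and ON, and mimic that of MM and MN. A fold on this scale understates changes of low entries. Named were the 6 Snord, 6 Snora and 3 other entries of highest median FPKM, those nearest the threshold, every entry called or else the 3 of smallest p, and further entries singled out after their values were seen: Gm22270, Gm26387, Snord65, Snord49b, Snora69, Snora21, ENSMUSG00002076924, ENSMUSG00000119163, Gm25965, Gm23346 and those in Nop58. Alternatives were another pseudocount, other filters, fits and scalings, limma voom on recovered reads, library weights, a replicate block and leaving out libraries. Sequences come from GENCODE transcripts, release M21, on GRCm38. The host genes of some named entries are not reported here.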

Additional observations from a re-analysis of the deposited data

Results flagged for a closer look

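Within the codes, of 5 or 6 libraries each, 20 of 169 sets of values held a library far from the rest. The nominal rate of the rule is about 1 in 20. That rate need not hold for low counts with many values of 0 or for entries picked by their values, so the 20 flags cannot be set against it. Snord72 had 8.96 FPKM in OS 1 (25.2 to 34.3 in the other OS libraries), Snord55 30.4 in MM 1 (others 12.1 to 16.7) and Gm24494 1.41 in MM 1 (others 14.8 to 19.4). Snord7 had 27.2 FPKM in OS 4 (others 8.10 to 15.04), and Gm25776 had 9.39 in OS 2 (others 1.69 to 4.07). In ON 2, which holds pancreatic RNA, Snora57 had 18.8 FPKM (others 8.27 to 11.3), SNORA21B 23.6 (others 5.48 to 9.66) and Gm26440 4.18 (others 0 to 0.474). SNORA21B also had 13.2 FPKM in CT 3 (others 7.07 to 7.87), and ENSMUSG00000119649 had 9.83 in MN 4 (others 3.94 to 5.59). Gm22270 had 22.7 FPKM in MM 3 (others 6.82 to 10.8) and 0 in CT 4 (others 5.96 to 8.34). Single libraries held all the reads of their code for Gm24403, at 0.400 FPKM in ON 4, and for ENSMUSG00002075696, at 0.607 in OS 3.

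Of the sums, all entries together reached 96.1 RPM in MN 4 (66.4 to 69.1 in the other MN libraries) and 40.8 in ON 3 (others 56.8 to 61.7). The Snord sum was 11.2 in MM 2 (others 19.2 to 21.1), 34.9 in OS 4 (others 15.96 to 20.9) and 5.27 in CT 4 (others 18.2 to 22.7). The sum of the other entries was 52.7 in MN 4 (others 32.6 to 37.1).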

How the results depend on the processing

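None of the differences recomputed for named entries changed direction under the alternatives run, but medians over the 165 entries did. In OVA against saline the median of 0.07 became -0.05 without CT 4 and -0.06 with library weights, in MM against MN -0.07 became 0.07 with library weights, and in mimic against OVA 0.04 became -0.01 without MM 4. In OVA against saline the 2 entries called became 0 with no filter on low values, with at least 10 reads in 5 libraries, with only the libraries compared, with 1 mean per treatment, with voom and without ON 2, ON 3 and MM 2, and became 8 (3 higher, 5 lower) with library weights. Leaving out 1 library at a time gave 0 to 2. In OS against ON the 1 entry called became 0 with a pseudocount of 0.1, no filter, at least 10 reads, only the libraries compared and voom, 4 with library weights and 2 without ON 2, ON 3 and MM 2, and leaving out 1 library gave 0 to 4. In MM against MN library weights called 1 entry. With mimic no entry was called against OVA or saline under any alternative. The cause of these changes was not tested. Requiring 10 reads in 5 libraries left 50 of 165 entries.

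No consistent pairing of libraries by replicate number was seen: over 50 same-numbered pairs the correlation of deviations ran from -0.394 to 0.356 (median -0.0437, 9 over 0.1). These values cannot exclude that some same-numbered libraries shared a batch. With a replicate block 0 entries were called in OVA against saline, OS against ON and MM against MN, and 184, 3 and 21 genes.

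Over all genes, OVA against saline called 340, against 150 with no filter, 117 with only the libraries compared, 87 with 1 mean per treatment, 1435 with library weights and 108 without ON 2, ON 3 and MM 2. OS against ON called 29, against 17 with a pseudocount of 0.1, 6, 0, 18 after rescaling, 564 and 123 under the same alternatives where they apply, and MM against MN 27, against 7 with no filter, 123 with only the libraries compared and 474 with library weights. These background counts also moved when 1 library was left out: OVA against saline called 152 (without CT 1) to 484 (without OS 3) genes, OS against ON 3 (without OS 2, OS 3, ON 3, ON 4 or ON 5) to 260 (without OS 5), and MM against MN 1 (without MM 4, MM 5 or MN 1) to 26 (without MM 3). The correlations without CT 4, without the 2 farthest libraries and by rank were added after seeing the data. With a median of 3 reads per entry and library, small differences were not detectable at this depth.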
